A study of Macaca fascicularis with 3 samples.

Results

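miR-221 and miR-222 are paralogous microRNAs, and every row of the deposited raw count table with either stem, on any arm, was taken. This gave 3 of the 432 listed mature miRNAs: mfa-miR-221-3p, mfa-miR-221-5p and mfa-miR-222-3p, where mfa marks the species, and the authors' second table pairs each with the human miRNA of the same name. The table came from small RNA sequencing of kidney cortex from 3 naïve cynomolgus monkeys (Macaca fascicularis), aged between 2 and 3 years, with 1 library per animal. The animals formed a single untreated group, and the labels gave no strain, sex, transgene or batch by which they differed. Comparisons were therefore possible between miRNAs and between animals, but not between conditions.

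miRNAs are short RNAs cut from a hairpin precursor, whose arms give the 5p and 3p products, and the product loaded into Argonaute silences mRNAs that pair with its seed, the bases near its 5′ end. In mammals miR-221 and miR-222 lie close together on the X chromosome and are transcribed together, and their 3p products share a seed. That seed directs them to mRNAs such as CDKN1B, which encodes a brake on the cell cycle, and KIT, which encodes the receptor for stem cell factor. The pair is known for its abundance in endothelial cells, for promoting the growth of vascular smooth muscle, and for its decline as red cell precursors mature. Cortex holds tubules, glomeruli, vessels and blood, so in a bulk sample fewer cells of a type and less of a miRNA per cell cannot be told apart.

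Listed miRNAs drew 4305977 counts in animal 1, 4707892 in animal 2 and 3957188 in animal 3. Levels are given as CPM, the counts per 1000000 listed counts of a library, and 1 count was worth between 0.212 and 0.253 CPM. A floor was set here at 3 counts, which lay between 0.637 and 0.758 CPM, far below every member. The tubule markers miR-192, miR-194 and miR-204 together held from 5.31% to 6.20% of the counts, while the liver marker miR-122 reached no more than 8.82 CPM. The library of animal 3 stood apart. The miRNAs whose mean count reached 10 numbered 391, and 26 of them lay at or below -2 on the log2 scale against the mean of the other animals, against 2 in animal 1 and 2 in animal 2. For many values that rest on animal 3, among them the mean and span of miR-221-3p and the arm ratio of miR-221, the value without it is also given. Ranks by mean level or by mean arm ratio include animal 3.

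miR-221-3p, the arm that carries the shared seed, was the most abundant of the 3. It had 9277, 9334 and 1592 counts in animals 1, 2 and 3, or 2154, 1983 and 402 CPM. Animals 1 and 2 were close to each other, and animal 3 was far below both. The mean was 1513 CPM ± 966 (SD, n = 3), rank 72 of the 432 listed miRNAs. Without animal 3 it was 2069 CPM ± 121 (SD, n = 2).

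miR-222-3p, the paralog with the same seed, had 2606, 2086 and 1471 counts, or 605, 443 and 372 CPM. Animal 1 was highest and animal 3 lowest, and the 3 values lay within a narrower range than those of miR-221-3p. The mean was 473 CPM ± 120 (SD, n = 3), rank 103.

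miR-221-5p is the opposite arm of the miR-221 hairpin, usually regarded as the passenger strand. It had 423, 359 and 379 counts, or 98.2, 76.3 and 95.8 CPM. Here animal 2 was lowest, and animal 3 lay beside animal 1. The mean was 90.1 CPM ± 12.0 (SD, n = 3), rank 182, and the SD was 13.4% of the mean against 25.3% for miR-222-3p and 63.8% for miR-221-3p.

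**Figure D1:**
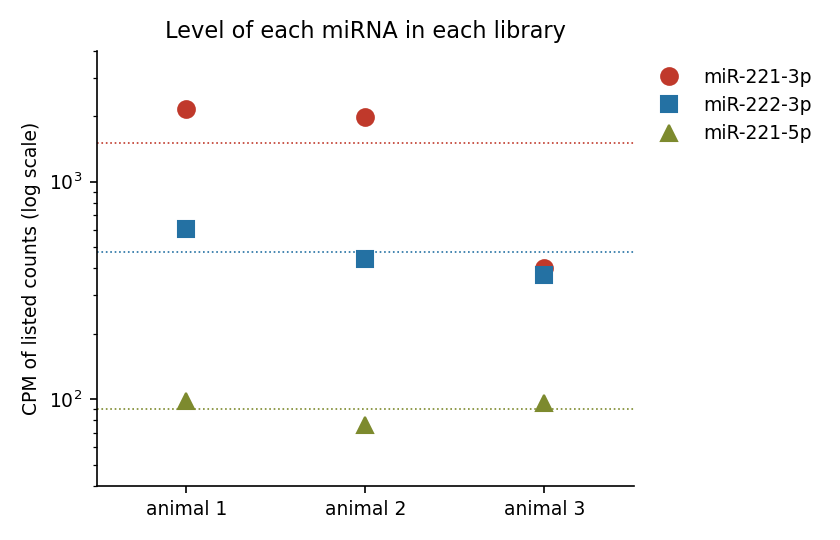
Level of each member in each library, in CPM of listed counts on a log axis. Each point is 1 library, and each dotted line is the mean over 3 animals. miR-221-3p sits at 2154 and 1983 CPM in animals 1 and 2 and at 402 CPM in animal 3, beside miR-222-3p at 372 CPM.

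Together the 3 miRNAs took 0.286% of the listed counts in animal 1, with a Wilson 95% confidence interval from 0.281 to 0.291. Their share was 0.2502% (0.246 to 0.255) for animal 2 and 0.0870% (0.0841 to 0.0899) for animal 3. These intervals cover counting error only, not the spread between animals or preparations. They treat reads as independent, as do the chi-square tests below. Reads without molecular identifiers are not independent molecules, so the true counting error may be larger. The intervals did not overlap. miR-221-3p made up 75.4%, 79.2% and 46.3% of the members' counts in animals 1, 2 and 3. The part of miR-222-3p was 21.2%, 17.7% and 42.7%, and that of miR-221-5p 3.44%, 3.05% and 11.0%.

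The order of the 3 was the same in every animal. miR-221-3p exceeded miR-222-3p by a factor of 3.56 in animal 1 and 4.47 in animal 2, but only 1.08 in animal 3. Its share of the counts of both 3p miRNAs was 78.1% in animal 1 (Wilson 95% interval 77.3 to 78.8) and 81.7% in animal 2 (81.0 to 82.4). For animal 3 this share was 52.0% (50.2 to 53.7), so that the paralogs were nearly level there. The mean log2 ratio was 1.37 ± 1.10 (SD) over 3 animals and 2.00 ± 0.23 without animal 3. miR-221-3p was the higher of the pair in 3 of 3 animals, with p = 0.25 in a two-sided exact permutation test that flips signs, the smallest that 3 animals allow, and the same value after adjustment over the 3 pairs of members.

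The ratio of the paralogs differed between the libraries beyond counting error. Such a call is common at these depths: the same form of test on hairpin arms called 67.2% of 122 hairpins. Pairs of unrelated miRNAs were not tested, so whether the call is particular to the paralogs is not known. The chi-square test on the table of both 3p miRNAs by 3 libraries gave a statistic of 1219 and an adjusted p of 5.00e-265, with Benjamini-Hochberg adjustment over the 3 pairs of members. For miR-222-3p with miR-221-5p the statistic was 40.4, with an adjusted p of 1.71e-09. The ratio of miR-222-3p to miR-221-5p, which leaves miR-221-3p out, was 6.16, 5.81 and 3.88, a span of 1.59-fold. The ratios that include miR-221-3p spanned 4.13-fold against miR-222-3p and 6.19-fold against miR-221-5p. In all 3 pairs the ratio was lowest in animal 3. Without animal 3 the ratio of miR-221-3p spanned 1.26-fold against miR-222-3p and 1.19-fold against miR-221-5p. The chi-square statistic for both 3p miRNAs was then 48.6 (adjusted p = 9.30e-12), and the call for miR-222-3p with miR-221-5p was lost (adjusted p = 0.450).

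**Figure D2:**
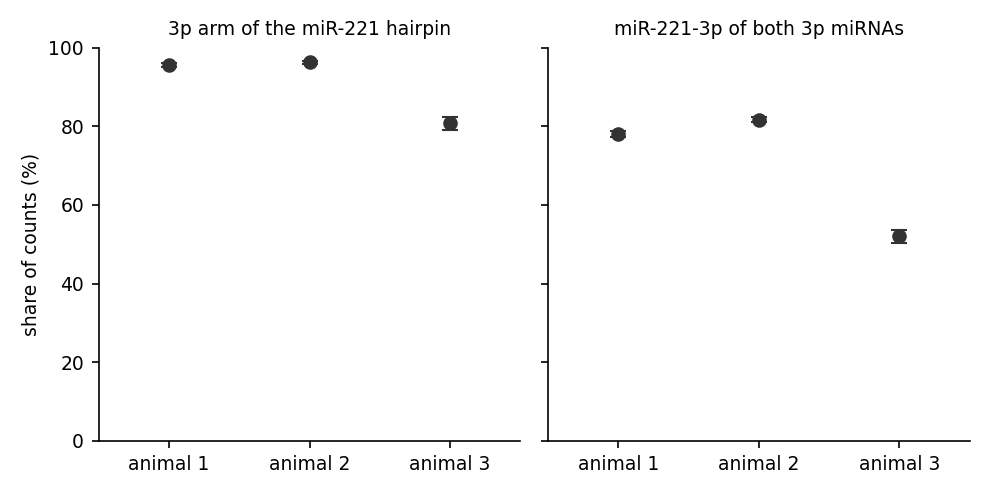
Share of miR-221-3p in each library, as a percentage of the counts of both arms of its hairpin (left) and of the counts of both 3p miRNAs (right). Points are libraries and bars are Wilson 95% confidence intervals. Animal 3 is lowest in both panels, at 80.8% and 52.0%.

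The choice between the arms of a hairpin can be read inside each library, with no scaling across libraries. For miR-221 both arms were listed, and for miR-222 the 3p arm was analysed. Of the counts of the miR-221 hairpin in animal 1, the 3p arm held 95.6% (Wilson 95% interval 95.2 to 96.0). It held 96.3% (95.9 to 96.7) for animal 2 and 80.8% (79.0 to 82.5) for animal 3. The 3p arm dominated in every animal, and the interval of animal 3 lay apart from the other two. In counts of 3p per count of 5p the values were 21.9, 26.0 and 4.20. The mean log2 ratio was 3.74 ± 1.45 (SD) over 3 animals and 4.57 ± 0.17 without animal 3. The 3p arm was higher in 3 of 3 animals, and the same exact permutation test again gave p = 0.25.

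Both arms were listed for 122 hairpins, all of them with at least 10 counts on average over the arms together. Among these miR-221 ranked 27 by the log2 ratio of 3p to 5p. Its neighbours in this order were miR-505, at 3.77 ± 0.31, and miR-133c, at 3.71 ± 0.87 (SD, 3 animals). The chi-square test of arms by libraries, adjusted with Benjamini-Hochberg over all 122 hairpins, gave miR-221 an adjusted p of 1.04e-174. At these depths the same test called 67.2% of the hairpins, and the call for miR-221 is to be read against that share. Without animal 3 the adjusted p for miR-221 was 0.0582, which did not pass 0.05. Adjusted over the 3 pairs of members instead, the same chi-square test without animal 3 gave 0.0300. That call therefore hangs on the set used for adjustment.

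By size, the arm ratio of miR-221 spanned 6.19-fold between animals, rank 20 of 122. A span above 2-fold was found in 54.9% of all hairpins. It was found in 44.4% of the 54 hairpins whose arms both had a mean count of at least 100, where counting error is smaller. In that group the median span was 1.86-fold, and miR-221 ranked 7. Without animal 3 its arm ratio spanned 1.19-fold, rank 90 of 122 hairpins and rank 34 of the 54. In 21 of these 54 hairpins animal 3 had the lowest ratio of 3p to 5p, miR-221 among them. Some animal is lowest in every hairpin, and this count is near an even split over the animals, so by itself it does not set animal 3 apart.

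**Figure D3:**
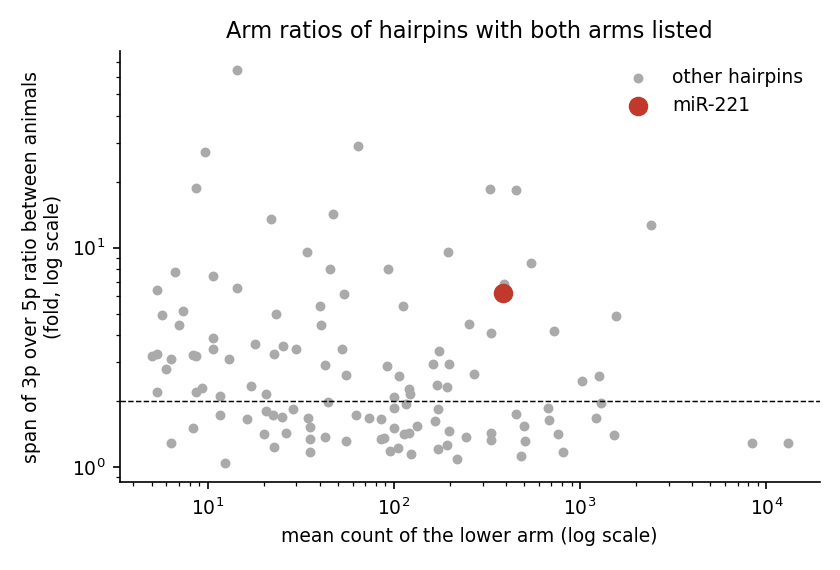
Span between animals of the ratio of 3p to 5p counts, as highest over lowest, against the mean count of the less abundant arm, for 122 hairpins on log axes. Each point is a hairpin, and the dashed line marks 2-fold. miR-221, in red, lies at 6.19-fold with a mean of 387 counts in its lower arm.

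Levels were then compared between animals after scaling by the trimmed mean of M values (TMM), which sets the bulk of the miRNAs level between libraries. Scaled miR-221-3p was 4.98-fold higher in animal 1 than in animal 3 (exact 95% interval 4.72 to 5.26) and 4.41-fold higher in animal 2 than in animal 3 (4.18 to 4.65). Between animals 1 and 2 it differed by 1.13-fold (1.10 to 1.16). Its span of 4.98-fold ranked 38 of 391 miRNAs, of which 39.9% spanned more than 2-fold. Among the 179 miRNAs with a mean of at least 100 CPM, where 28.5% did so, miR-221-3p ranked 12 by the SD of its log2 level. Without animal 3 its span of 1.13-fold ranked 295 of 400 miRNAs, and its SD ranked 127 of 182.

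The other members varied far less. miR-222-3p was 1.51-fold higher in animal 1 than in animal 3 (exact 95% interval 1.42 to 1.62). Between animals 2 and 3 its fold was 1.07 (0.996 to 1.14), an interval that includes no difference. miR-221-5p in animal 1 was 1.34-fold that in animal 2 (1.16 to 1.55) and 0.954-fold that in animal 3 (0.829 to 1.10). The spans of miR-222-3p and miR-221-5p, 1.51 and 1.40-fold, lay below the median of 1.71-fold over the 391 miRNAs.

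In animal 3 the log2 deviation from the mean of animals 1 and 2 was -2.23 for miR-221-3p, rank 23 from the lowest of 391. A deviation of -2 or below in that library was found for 6.65% of the miRNAs. It was -0.34 for miR-222-3p and 0.28 for miR-221-5p, beside a median of -0.01 over all 391. Of the 3 members, 1 thus lay among the low miRNAs of animal 3, while its opposite arm and its paralog did not.

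**Figure D4:**
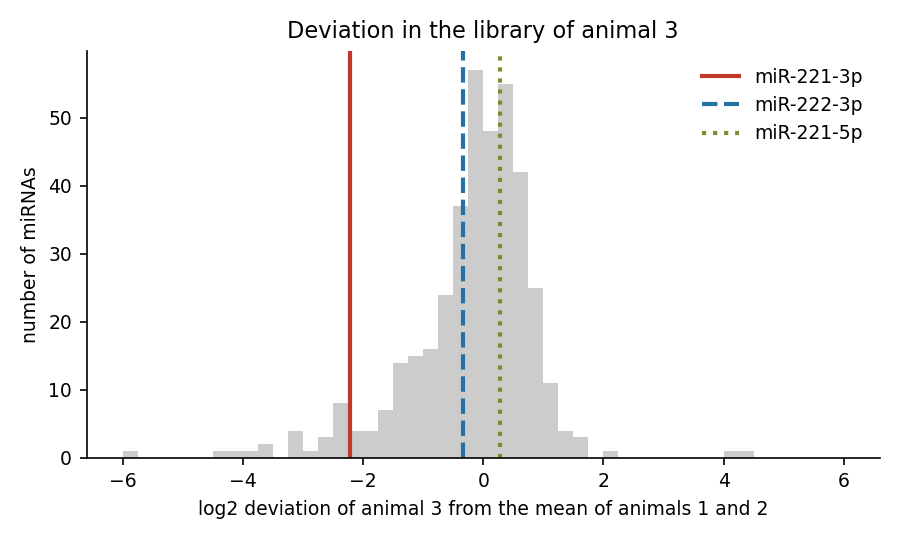
Log2 deviation of animal 3 from the mean of animals 1 and 2, on TMM-scaled CPM + 1, for 391 miRNAs. Bars count miRNAs in bins of equal width, and vertical lines mark the members. miR-221-3p at -2.23 lies in the lower tail, and miR-222-3p at -0.34 and miR-221-5p at 0.28 lie within the main body.

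The chi-square test of homogeneity between libraries, adjusted over the 391 miRNAs, called all 3 members. It called 80.6% of the miRNAs tested, so this count of members is near the background. Leaving out 1 library ended 2 of the 3 calls: the adjusted p was 0.0872 for miR-222-3p without animal 1 and 0.200 for miR-221-5p without animal 2. For miR-221-3p it was 1.89e-16 without animal 3. The statistic was 4328 for miR-221-3p (log10 of the unadjusted p -940), 221 for miR-222-3p (adjusted p = 3.51e-48) and 25.3 for miR-221-5p (adjusted p = 5.25e-06). This test sets the spread between animals against counting error alone. When the common dispersion that edgeR estimates over these miRNAs, a coefficient of variation of 0.438, was added to counting error, it called 0.512% of the miRNAs and 0 of 3 members. The unadjusted p was then 0.157 for miR-221-3p, 0.752 for miR-222-3p and 0.850 for miR-221-5p. The low value of miR-221-3p in animal 3 thus exceeded counting error. Whether it exceeded the spread between animals is not decided by the test with the common dispersion, to which animal 3 itself contributes. With that dispersion, a drop confined to 1 of 3 libraries can hardly be called. Even miR-502-3p, with a log2 deviation of -4.44 in animal 3 and a span of 29.9-fold, had an adjusted p of 0.999 in that test.

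Levels of miRNAs known from particular cell types were set beside this result, as sums over lists on the same TMM scale. The endothelial miR-126 stood at 49305, 37953 and 43362 CPM in animals 1, 2 and 3. Its level in animal 3 lay between those of the other animals. The smooth muscle list of miR-143 and miR-145 summed to 27911, 30217 and 47225 CPM, highest in animal 3. On the log2 scale against the mean of animals 1 and 2, miR-145-5p lay at 0.86 in animal 3 and the scarce miR-143-5p at 4.31. The rows of miR-143-3p at 0.08 and miR-145-3p at -0.09 did not share this rise and were highest in animal 1. The erythroid list of miR-451, miR-144 and miR-486 summed to 4971, 4158 and 6130 CPM, also highest in animal 3. This sum followed miR-451, at 0.52 there, while miR-144 went the other way and was lowest in animal 3, at -0.53. The far less abundant miR-486-5p and miR-486-3p lay at 0.78 and 0.49. The leucocyte list of miR-142, miR-150 and miR-223 was nearly level as a sum, at 1603, 1642 and 1614 CPM. Its rows differed in direction in animal 3, from miR-142-5p at -0.56 to miR-150-5p at 0.52. The stromal list of miR-199a and miR-214 was also nearly level, at 13570, 14473 and 13995 CPM. In this list the identical rows miR-199a and miR-199a-5p both count.

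The tubule list summed to 56416, 58907 and 56420 CPM, and the epithelial list of the miR-200 family to 20678, 19634 and 17312 CPM. miR-21, which rises in injured and fibrotic kidney, summed to 14735, 13472 and 16029 CPM over both arms. The largest span of these 8 sums, each of which follows its most abundant rows, was 1.69-fold, while single rows spanned up to 47.6-fold (miR-143-5p). Of the 28 tested rows in the 8 lists, 2 lay at or below -1 in animal 3, miR-204-3p at -4.10 and miR-21-3p at -1.48, and 1 lay above 1, miR-143-5p at 4.31. Over all 391 miRNAs, 66 lay at or below -1 and 21 at or above 1. Whether the make-up of the tissue pieces had a part in the level of miR-221-3p was not tested.

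A further list held miRNAs abundant in endothelial cells, among them miR-126 and miR-21 from the lists above. Its 14 rows summed to 141284, 119198 and 144120 CPM. Of these rows, 4 lay at or below -1 in animal 3: miR-10a-3p at -2.72, miR-23a-3p at -2.21, miR-21-3p at -1.48 and miR-27a-5p at -1.39. Over all 391 miRNAs 16.9% did so. In animal 3 miR-10a-3p, miR-27a-5p and miR-21-3p had only 5, 7 and 89 counts. Their more abundant opposite arms lay at 0.41, -0.12 and 0.19. The row of miR-31-5p lay above 1, at 1.39. The most abundant rows, miR-126 at 0.00 and miR-10a-5p at 0.41, did not share the low value of miR-221-3p.

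The miRNAs most alike to miR-221-3p in pattern were found over 3 libraries from the largest difference between centred log2 levels, among 177 other miRNAs with a mean of at least 100 CPM. Closest was miR-23a-3p, with 44946, 49971 and 8209 counts and a largest difference of 0.08. miR-455-3p followed with 5560, 5168 and 1033 counts and a difference of 0.12. Then came miR-23b-3p, with a difference of 0.23, miR-423-5p with 0.35 and miR-381-3p with 0.38. All 5 were low in animal 3, as their choice by pattern entails, with deviations from -1.71 to -2.46.

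The miRNAs most alike to miR-222-3p were others. miR-374a-5p, with 812, 651 and 471 counts, differed from it by at most 0.03. let-7b-5p differed by 0.04, miR-1-3p by 0.05, miR-495-3p by 0.07 and miR-411-5p by 0.09. These 5, chosen by the same rule, were highest in animal 1 and lowest in animal 3 like miR-222-3p, with spans from 1.47 to 1.66-fold. With 3 libraries such likeness is a description of these animals.

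In the order of mean levels, the neighbours of miR-221-3p were miR-34a-5p at 1585 CPM and miR-374b-5p at 1569 CPM above it, and miR-195-5p and miR-98 at 1454 CPM below it. miR-221-3p exceeded each of the 4 in animals 1 and 2 and lay below each in animal 3, so its place among them was not resolved. miR-222-3p lay between miR-214-3p at 483 CPM and miR-338-3p at 462 CPM, and miR-221-5p between miR-7 at 93.2 CPM and miR-376b-3p at 87.2 CPM. Of the 12 pairs of a member with the 2 neighbours on each side, none kept its order in all 3 animals. Exact sign-flip permutation p-values lay at 0.75 or 1, with all adjusted values at 1. Because the neighbours were chosen for their close means, high p-values were built in, and these tests decide nothing about the order. The 3 members, whose means lie further apart, kept their order among themselves in all 3 animals.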

How the data were processed

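The authors mapped small RNA reads to M. fascicularis miRNAs with 0 mismatches and kept miRNAs having at least 15 reads, per the file headers; the deposited raw table holds whole-number counts. The aligner, miRNA release and handling of reads that match several miRNAs are not given in the sources used here, so reads of related miRNAs could be shared. The deposited normalized signal was made by the authors with edgeR, per the file headers, and served only as an alternative. Per the labels' protocols, 25 to 30 mg of frozen tissue was extracted, and 12 ng of small RNA enriched from 5 µg of total RNA entered each library.

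CPM was computed over listed counts. TMM factors from edgeR 4.0.16 (R 4.3.3) were 1.01, 1.05 and 0.940. Chi-square tests (scipy 1.17.1) ran on all 391 miRNAs averaging 10 or more counts, or on all 122 hairpins, with Benjamini-Hochberg adjustment at 0.05. They were also run on simulated counts with counting error alone, which lack the spread between animals seen here. Log2 values used a pseudocount of 1. Alternatives were DESeq2 1.42.0 size factors, totals, other count minimums, pseudocount 0.5, the authors' signal and leaving out each animal. Named miRNAs were the members, their 2 neighbours in level on each side, their neighbours in arm ratio, the 5 most alike in pattern, and the cell type lists. Lists of liver, neuron and muscle markers were also summed; neuron markers reached 131 CPM and muscle markers 621 CPM at most. Members and lists were chosen with earlier results of these data known.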

Additional observations from a re-analysis of the deposited data

How the results depend on the processing

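With the common dispersion added to counting error, an alternative chosen after seeing the data, the adjusted p was 0.999 for each member. As said above, that test can hardly call a drop confined to 1 of 3 libraries. The miRNAs called by that test fell from 315 to 2, with 17 at an unadjusted p under 0.05. When each animal was left out in turn, the adjusted p for the difference between libraries ranged from 1.33e-32 to 0.0872 for miR-222-3p, the highest without animal 1, and from 8.09e-06 to 0.200 for miR-221-5p, the highest without animal 2. For miR-221-3p it ranged from 0 (below the smallest number the software holds) to 1.89e-16, the highest without animal 3. The span of miR-221-3p ranged from 1.13 to 4.73-fold, the lowest without animal 3. The adjusted p for the arm ratio of miR-221 ranged from 2.85e-145 to 0.0582, the highest again without animal 3, where 41 of 122 hairpins were called in place of 82. Without animal 3, 35 miRNAs spanned more than 2-fold in place of 156, without animal 1 there were 92, and at a mean count of at least 100 there were 82 of 259. Leaving out an animal can only narrow a range on a given scale. Of 80 recalculated values of the members, the other 73 kept their side of the threshold, or moved by less than the spread between animals or, for spans, by less than 1.5 times. For mean levels and ratios with 1 of 3 animals left out this could not have been otherwise. Scaling by DESeq2 size factors, by totals or in the authors' signal gave spans from 4.89 to 5.42-fold for miR-221-3p. Ratios of members were paired within each library, but no pairing across conditions was possible because all animals belong to 1 group. The lowest count of a member in a library was 359, for miR-221-5p, whose fold between animals 1 and 2 has an exact 95% interval from 1.16 to 1.55.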
